A study of Mus musculus with 6 samples.

Results

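The complement and coagulation factors examined here are 36 genes, 16 of complement and 20 of blood coagulation and fibrinolysis, taken by gene symbol from a table of 55536 mouse genes. Each symbol had 1 Ensembl ID, and all 36 genes were counted in all 6 libraries and passed the filter on low counts.

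Complement is a set of plasma proteins that bind to microbes or altered cells and are activated in a chain of cleavages. Lectins or antibodies start the chain, convertases built from C4, C2, C3 and factor B amplify it, and the terminal components C5 to C9 form a pore in the target membrane. Coagulation is a similar chain in which factor VII, factor X and thrombin turn fibrinogen into fibrin, with antithrombin and the protein C system as brakes and plasmin as the enzyme that dissolves the clot. Hepatocytes make most of these proteins, and several of them are also acute-phase proteins whose synthesis rises in inflammation.

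The libraries came from tumours in male C3H mice of 6 to 8 weeks that had received 1000000 cells of HCA-1, a line of mouse hepatocellular carcinoma, beneath the liver capsule. Tumours of the TSDP group (libraries 1, 2 and 5) had nanoparticles carrying DNIC, a nitric oxide donor, and the kinase inhibitor sorafenib given intravenously on 6 days between day 10 and day 23, and tumours of the Control group (libraries 3, 4 and 5) are labelled untreated. All were collected on day 24, and whether an empty carrier was given to Control mice is not stated in the labels. All tumours thus come from a single cell line growing in a host liver, and the labels do not say how liver tissue was separated from tumour. Total counts were 36376925 to 36629665 in TSDP and 32130808 to 38953397 in Control libraries.

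Control 3 stood apart in its liver transcripts. A list of 20 hepatocyte markers, none of them a complement or coagulation factor, took 1.94% to 5.59% of counts in TSDP libraries and 0.0165% to 1.96% in Control libraries, lowest in Control 3 and highest among Control libraries in Control 4. Erythroid markers took at most 0.00497% in TSDP libraries, and 0.0646% in Control 3 against at most 0.00513% in the other Control libraries. Macrophage markers took 0.153% to 0.202% in TSDP and 0.110% to 0.173% in Control libraries, and platelet and megakaryocyte markers 0.00317% to 0.00560% and 0.00489% to 0.00534%. The 6 markers of Kupffer cells, the resident macrophages of liver, took 0.01221% to 0.03485% in TSDP and 0.004352% to 0.01265% in Control libraries, lowest in Control 3. Their median log2 fold change (TSDP over Control) was 1.52, with 5 of 6 positive. They did not move alike in Control 3. Clec4f, with 2 counts, Vsig4, Timd4 and Cd5l were lowest in that library. Marco, at 28.4 CPM (counts per 1000000), and Folr2, at 4.14 CPM, were highest in it. Marco gave 919 of the 1416 Kupffer marker counts there. The 8 fibroblast and stellate cell markers took 0.417% to 0.771% in TSDP and 0.299% to 0.639% in Control libraries, also lowest in Control 3. There Lrat had 1 count and Reln 6, whereas the others stood at 18.5% (Dcn) to 69.3% (Pdgfrb) of their TSDP mean. The part of Kupffer and stellate cells in the members' values was not tested. Afp, a marker of hepatocellular carcinoma, was at 4.24 to 9.20 CPM (counts per 1000000) in TSDP and 3.27 to 3.68 CPM in Control libraries, and Gpc3, another such marker, at 1.79 to 4.83 CPM and 0.680 to 2.79 CPM. The 8 tumour and proliferation markers, which include these, took 0.0748% to 0.124% of counts in TSDP and 0.0893% to 0.169% in Control libraries, highest in Control 3, with a median log2 fold change of -0.02. Afp and Gpc3 were low in all libraries, whereas Mki67, a proliferation marker, was at 319.2 to 533.1 CPM in TSDP and 392.5 to 803.1 CPM in Control libraries.

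Most complement and coagulation genes had higher levels in TSDP tumours than in Control 3 and Control 5, but Control 4 lay close to TSDP 5, and no member passed the test. The 16 complement genes took 0.424%, 0.859% and 0.323% of counts in TSDP 1, 2 and 5, and 0.0260%, 0.467% and 0.0850% in Control 3, 4 and 5, with means of 0.535% ± 0.285 in TSDP and 0.193% ± 0.239 in Control (SD, n = 3 each). The 20 coagulation genes took 0.940%, 1.91% and 0.613% in TSDP 1, 2 and 5, and 0.0391%, 1.23% and 0.142% in Control 3, 4 and 5, with means of 1.15% ± 0.675 in TSDP and 0.469% ± 0.657 in Control (SD, n = 3 each). For both sums Control 4 exceeded TSDP 1 and TSDP 5, so the groups overlap. The 95% Wilson intervals were 0.0255% to 0.0266% for the complement sum and 0.0385% to 0.0398% for the coagulation sum in Control 3, and in every other library their half-width was at most 1.08% and 0.833% of the value, which covers counting error only. In bulk tumour RNA, fewer cells of a type and less RNA per cell cannot be told apart.

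**Figure D1:**
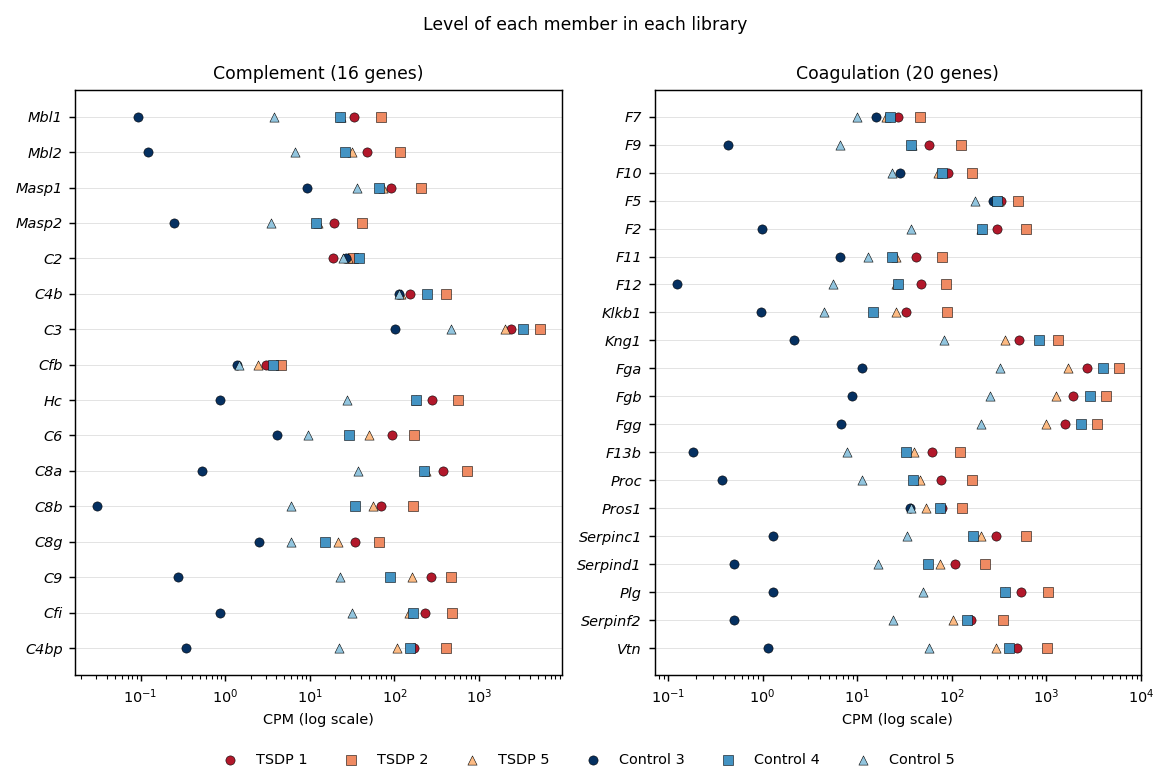
Level of each of the 36 members in each library, in CPM on a log axis, complement on the left and coagulation on the right, with 1 point per library (TSDP 1, 2 and 5 in red and orange, Control 3, 4 and 5 in blue). TSDP 2 is the highest point for 35 members and Control 3 the lowest for 32, while C2, F5 and C4b span a narrow range.

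In edgeR's quasi-likelihood test over 17423 genes, 0 of 16 complement and 0 of 20 coagulation members passed a Benjamini-Hochberg adjusted p of 0.05 in either direction, and 0% of all tested genes did. Log2 fold changes (TSDP over Control) were positive for 15 of 16 complement and 20 of 20 coagulation genes, against 47.3% of all tested genes, and negative for 1 member, C2, against 52.7%. Their medians were 2.23 for complement and 1.91 for coagulation, against -0.02 for all tested genes. The smallest and largest edgeR adjusted p among the 36 were 0.326 and 0.798. At an unadjusted p under 0.05 there were 6 members (C6, C8g, F7, F10, F11 and Klkb1), all higher in TSDP, which is 16.7% of the members against 8.6% of all tested genes, and 0 members were lower at that p, against 4.75%. The 3 TSDP values lay above all 3 Control values for 9 complement and 8 coagulation genes, and below them for 0, against 13% and 8.76% of all tested genes. The 20 hepatocyte markers had these traits as well. Of them 20 were positive, with a median log2 fold change of 2.73. At the same unadjusted p 5 of them (25%) were higher in TSDP and 0 lower, and for 15 (75%) the TSDP values lay above all Control values. DESeq2, run as an alternative, called C6, C8g and F11 higher, against 2.98% of the genes it adjusted. On a simulated table of this comparison (17423 genes), with genes drawn independently, 32.2% of DESeq2 calls were false, against 7.2% of edgeR calls.

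The libraries kept nearly the same order from gene to gene. TSDP 2 exceeded TSDP 1, and TSDP 1 exceeded TSDP 5, for 35 of 36 members, and Control 4 exceeded Control 5, and Control 5 exceeded Control 3, for 32. Control 4 exceeded TSDP 5 for 19 members, and without Control 4 the number of members whose TSDP values all lay above Control was 35 in place of 17. Without TSDP 5 it was 28. The median log2 fold changes without Control 4 were 4.03 for complement and 4.19 for coagulation. With the mean log2 CPM of the hepatocyte markers as a covariate the medians turned to -0.36 and -0.37, and 27 of 36 members were negative, with a smallest edgeR adjusted p of 0.234.

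**Figure D2:**
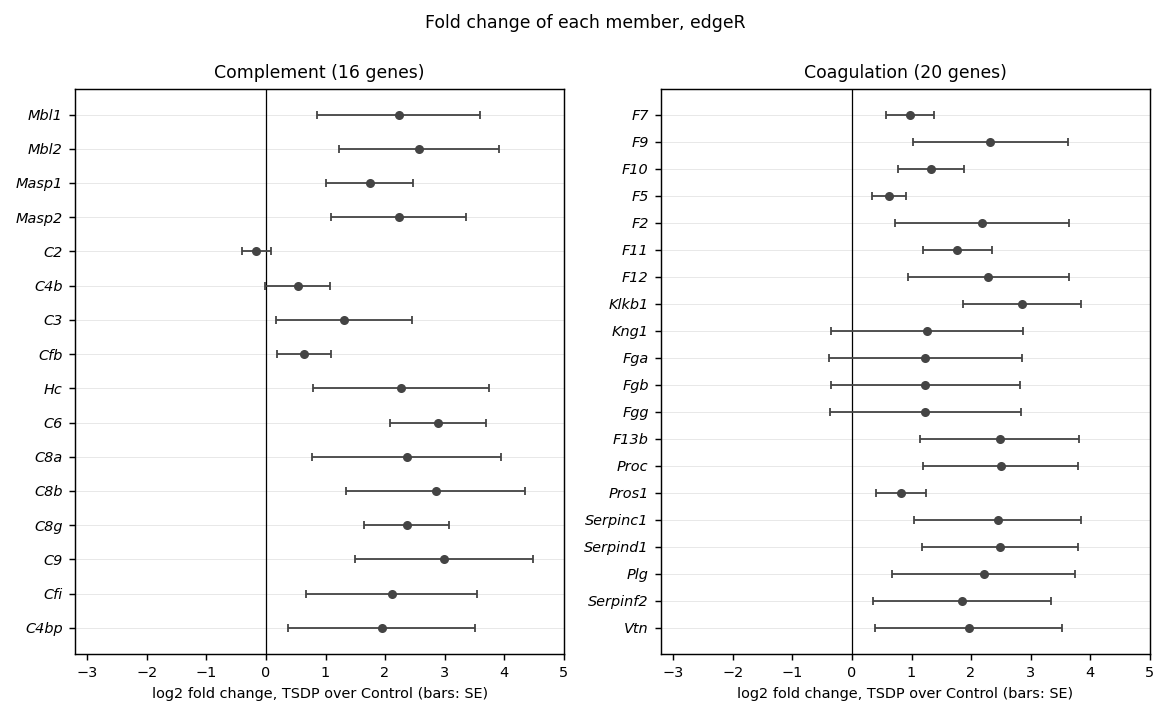
Log2 fold change of each member, TSDP over Control, from edgeR, with SE as bars and complement on the left. Points lie between -0.16 for C2 and 2.99 for C9, the bars of the genes that are low in Control 3 are wide, and those of C2, F5 and F7 are narrow.

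The lectin pathway genes were low to moderate in level. Mbl2, which encodes the mannose-binding lectin C that recognises sugars on microbes, was at 47.9, 114.7 and 31.3 CPM in TSDP 1, 2 and 5, and at 0.124, 25.8 and 6.69 CPM in Control 3, 4 and 5. All TSDP values lay above all Control values, though TSDP 5 and Control 4 were close, and the log2 fold change was 2.57 ± 1.35 (SE, adjusted p = 0.449 by edgeR). The Control 3 value rests on 4 counts. Mbl1, the second mannose-binding lectin of the mouse, had 3 counts in Control 3, and a log2 fold change of 2.23. Masp1 and Masp2, the proteases that the lectins carry, had log2 fold changes of 1.74 ± 0.73 and 2.23 ± 1.13, and for both genes the groups did not overlap. Of Masp2 exons 54.9% are shared with the opposite-strand gene Tardbp, which had 7008 counts or more in every library, and no source used here gives the strand setting of the counting, so the level of Masp2 is uncertain.

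The convertase genes C2, C4b and Cfb had log2 fold changes of -0.16 to 0.64, and C3 had a wider spread between libraries. C3 (GRCm38 chr17:57203970-57228136), the central component that all complement pathways cleave, was at 2369, 5187 and 2021 CPM in TSDP 1, 2 and 5, and at 101.4, 3301 and 470 CPM in Control 3, 4 and 5. Control 4 stood above TSDP 1 and TSDP 5, and the log2 fold change was 1.31 ± 1.15 (SE, adjusted p = 0.631 by edgeR). C2 (chr17:34862604-34898265), the protease of the classical and lectin convertase, was at 19.0, 32.3 and 28.1 CPM in TSDP libraries and at 26.6, 37.8 and 24.3 CPM in Control libraries, in the same order. Its values interleaved, and its log2 fold change of -0.16 ± 0.25 (edgeR adjusted p = 0.798) was the smallest in size of the complement genes and turned positive without TSDP 1 (0.032) or without Control 4 (0.054).

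C4b (chr17:34728380-34743882), the C4 component to which C2 binds, was at 152.6, 403 and 120.6 CPM in TSDP 1, 2 and 5, and at 112.6, 240.4 and 114.2 CPM in Control 3, 4 and 5, a log2 fold change of 0.53 ± 0.54 (edgeR adjusted p = 0.677). Control 4 lay between TSDP 2 and the other TSDP libraries. Without TSDP 2 the log2 fold change was -0.20. Its near-identical neighbour C4a, which may share reads with it, averaged 15 CPM in TSDP and 6.40 CPM in Control. Cfb, the protease of the alternative convertase, was at 3.07, 4.60 and 2.46 CPM in TSDP libraries and at 1.39, 3.62 and 1.47 CPM in Control libraries, a log2 fold change of 0.64 ± 0.46 (edgeR adjusted p = 0.561). Of Cfb exons 79.5%, and of C2 exons 42.8%, lie also in the overlapping gene Gm20547, to which 0 reads were assigned in all libraries, so the absolute levels of C2 and Cfb are uncertain.

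The 6 terminal components had log2 fold changes of 2.27 to 2.99, the 3 largest of the complement genes among them, and the groups did not overlap for 5 of them. Hc, the mouse gene for C5, which starts the pore, was at 274.9, 560.1 and 180.0 CPM in TSDP 1, 2 and 5, and at 0.865, 181.8 and 27.7 CPM in Control 3, 4 and 5. Control 4 just exceeded TSDP 5, and the log2 fold change was 2.27 ± 1.48 (SE, adjusted p = 0.523 by edgeR). C9, the subunit that polymerises into the pore wall, was at 267.4, 460.4 and 161.9 CPM in TSDP libraries and at 0.278, 89.4 and 22.4 CPM in Control libraries, without overlap, a log2 fold change of 2.99 ± 1.5 (edgeR adjusted p = 0.434). C6, which joins C5b to build the complex, was at 92.8, 170.1 and 50.3 CPM in TSDP libraries and at 4.14, 28.8 and 9.40 CPM in Control libraries. Its log2 fold change of 2.89 ± 0.80 had the smallest p of all 36 members (edgeR adjusted p = 0.326), with a higher value in 3 of 3 TSDP libraries than in any Control library.

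The chains of C8 did not keep the same proportions. C8a, C8b and C8g encode the alpha, beta and gamma chains of that component. Per kilobase of exon, C8g stood at 0.222, 0.218 and 0.225 of the C8a level in TSDP 1, 2 and 5, and at 11.8, 0.163 and 0.392 of it in Control 3, 4 and 5. Control 3 was the library in which the gamma chain, a lipocalin, exceeded the alpha chain, with 82 counts of C8g against 17 of C8a and 1 of C8b. The log2 fold changes were 2.36 ± 1.58 for C8a, 2.85 ± 1.5 for C8b and 2.36 ± 0.71 for C8g (edgeR adjusted p = 0.530, 0.449 and 0.334).

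The complement inhibitors Cfi, the protease that inactivates C3b and C4b, and C4bp, its cofactor for C4b, had log2 fold changes of 2.11 ± 1.44 and 1.94 ± 1.57 (SE, adjusted p = 0.538 and 0.603 by edgeR). Control 4 exceeded TSDP 5 for both genes.

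Among the genes of the coagulation proteases and the cofactor factor V, F2 and F9 were close to 0 in Control 3, as were most hepatocyte markers. F5, F7 and F10 were not. F2 (chr2:91625320-91636414), which encodes prothrombin, was at 302.4, 608 and 202.5 CPM in TSDP 1, 2 and 5, and at 0.989, 207.2 and 37.0 CPM in Control 3, 4 and 5. TSDP 5 and Control 4 were nearly equal, and the log2 fold change was 2.18 ± 1.46 (SE, adjusted p = 0.531 by edgeR). F9, the factor IX gene, had a log2 fold change of 2.32 ± 1.30 (edgeR adjusted p = 0.467).

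F5 (chr1:164151838-164220277), the cofactor with which factor Xa activates prothrombin, was at 328, 499 and 314.5 CPM in TSDP 1, 2 and 5, and at 270.0, 301 and 174.5 CPM in Control 3, 4 and 5. The groups did not overlap, but the step between TSDP 5 and Control 4 was small, and the log2 fold change of 0.62 ± 0.28 (SE, adjusted p = 0.398 by edgeR) was the smallest of the coagulation genes. F10, the factor X gene, was at 92.3, 165.1 and 72.2 CPM in TSDP libraries and at 28.2, 79.4 and 23.6 CPM in Control libraries, with Control 4 above TSDP 5 and a log2 fold change of 1.33 ± 0.55 (edgeR adjusted p = 0.373). F7, whose protein starts coagulation with tissue factor, was at 27.3, 46.2 and 20.3 CPM in TSDP libraries and at 15.8, 22.1 and 9.84 CPM in Control libraries, with a log2 fold change of 0.97 ± 0.40 (edgeR adjusted p = 0.373). Per kilobase of exon, F5 was at 0.671, 0.508 and 0.960 of the F2 level in TSDP 1, 2 and 5, and at 168.9, 0.898 and 2.92 of it in Control 3, 4 and 5. Control 3 thus carried F5 with almost no prothrombin transcript.

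The contact system genes had log2 fold changes of 1.26 to 2.86. F11, the factor XI gene, was at 41.5, 79.3 and 26 CPM in TSDP 1, 2 and 5, and at 6.52, 23.5 and 13 CPM in Control 3, 4 and 5. Its groups did not overlap, and with a log2 fold change of 1.77 ± 0.58 it had the smallest p of the coagulation genes (SE, adjusted p = 0.334 by edgeR). Klkb1, the plasma prekallikrein gene, had a log2 fold change of 2.86 ± 0.99 (edgeR adjusted p = 0.339), and 43.2% of its exons lie also in the overlapping gene Gm45753, which had at most 3 counts in a library. F12, the factor XII gene, had a log2 fold change of 2.29 ± 1.35, with 4 counts in Control 3. Kng1, the kininogen gene, was at 520, 1334 and 368 CPM in TSDP libraries and at 2.16, 842.6 and 83.8 CPM in Control libraries, a log2 fold change of 1.26 ± 1.61 (edgeR adjusted p = 0.748). Kng2, a close copy that may share reads, averaged 114.7 CPM in TSDP and 43.3 CPM in Control.

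The 3 fibrinogen chains were the most abundant of the members per length in TSDP tumours, together with C3, at 1133, 951 and 648.5 CPM per kilobase of exon for Fga, Fgg and Fgb and 620.7 for C3. Fga (chr3:83026076-83033627), Fgb (chr3:83040141-83049863) and Fgg (chr3:83007724-83015049) are neighbours on chromosome 3. Fga was at 2695, 5842 and 1694 CPM in TSDP 1, 2 and 5, and at 11.2, 4015 and 322.7 CPM in Control 3, 4 and 5. Fgb was at 1910, 4242 and 1260 CPM in TSDP libraries and at 8.77, 2890 and 251.3 CPM in Control libraries. Fgg was at 1562, 3415 and 993 CPM in TSDP libraries and at 6.83, 2327 and 203 CPM in Control libraries. For all 3 chains Control 4 stood second only to TSDP 2, and each had a log2 fold change of 1.23, with SE of 1.62, 1.59 and 1.60 and edgeR adjusted p of 0.755, 0.751 and 0.751. The chains kept their proportions: per kilobase, Fga stood between 1.62 and 1.79 times Fgb and Fgg between 1.42 and 1.49 times Fgb in all 6 libraries, while Fgb itself ranged over 483.6-fold. F13b, the carrier subunit of factor XIII, had a log2 fold change of 2.48 ± 1.33 (edgeR adjusted p = 0.456).

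Promoter windows of the 3 fibrinogen genes, which moved together, and of Hc, F5 and F10, as examples of genes low and not low in Control 3, are given as 250 bases before and 50 after the annotated start, from RefSeq on build GRCm38.p6. Windows were found for 28 of the 36 members. Capitals mark matches, on either strand, to 4 motifs of factors known from liver and acute-phase genes: GTTAAT (HNF1 core), GTTAATNAT (longer HNF1 site, which contains the core), TTGCNNAA (C/EBP) and TTCNNGGAA (STAT3). The windows are Fga at chr3:83025903-83026202 (+ strand), Fgb at chr3:83049814-83050113 (- strand), Fgg at chr3:83007474-83007773 (+ strand), Hc at chr2:35061363-35061662 (- strand), F5 at chr1:164151585-164151884 (+ strand) and F10 at chr8:13037058-13037357 (+ strand).
Fga: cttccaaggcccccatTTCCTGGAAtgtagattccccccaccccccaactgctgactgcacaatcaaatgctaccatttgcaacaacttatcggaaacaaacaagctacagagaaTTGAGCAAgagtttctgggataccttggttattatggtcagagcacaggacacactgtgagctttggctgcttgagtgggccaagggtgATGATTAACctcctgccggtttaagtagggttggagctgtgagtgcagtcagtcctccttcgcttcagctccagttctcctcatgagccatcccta
Fgb: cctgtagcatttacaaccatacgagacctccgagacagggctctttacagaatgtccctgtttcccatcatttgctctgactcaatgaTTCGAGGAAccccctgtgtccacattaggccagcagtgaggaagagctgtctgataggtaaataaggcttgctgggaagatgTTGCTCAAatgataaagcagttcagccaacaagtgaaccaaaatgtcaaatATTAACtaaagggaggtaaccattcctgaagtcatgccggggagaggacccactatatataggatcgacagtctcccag
Fgg: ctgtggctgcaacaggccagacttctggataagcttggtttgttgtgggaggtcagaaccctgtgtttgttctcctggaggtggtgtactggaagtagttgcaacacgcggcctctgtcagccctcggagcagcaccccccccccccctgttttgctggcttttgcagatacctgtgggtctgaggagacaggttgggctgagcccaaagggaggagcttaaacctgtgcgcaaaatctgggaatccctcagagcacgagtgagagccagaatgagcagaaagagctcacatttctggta
Hc: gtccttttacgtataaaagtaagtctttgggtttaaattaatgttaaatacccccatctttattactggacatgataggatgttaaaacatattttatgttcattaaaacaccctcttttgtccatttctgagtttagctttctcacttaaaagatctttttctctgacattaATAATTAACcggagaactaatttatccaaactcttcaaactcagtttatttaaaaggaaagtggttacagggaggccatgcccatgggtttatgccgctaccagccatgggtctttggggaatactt
F5: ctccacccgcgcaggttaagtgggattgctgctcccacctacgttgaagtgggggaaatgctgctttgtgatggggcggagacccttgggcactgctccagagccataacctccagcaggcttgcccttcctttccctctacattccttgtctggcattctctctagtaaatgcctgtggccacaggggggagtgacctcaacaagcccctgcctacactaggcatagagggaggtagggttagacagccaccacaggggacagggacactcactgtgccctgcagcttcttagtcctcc
F10: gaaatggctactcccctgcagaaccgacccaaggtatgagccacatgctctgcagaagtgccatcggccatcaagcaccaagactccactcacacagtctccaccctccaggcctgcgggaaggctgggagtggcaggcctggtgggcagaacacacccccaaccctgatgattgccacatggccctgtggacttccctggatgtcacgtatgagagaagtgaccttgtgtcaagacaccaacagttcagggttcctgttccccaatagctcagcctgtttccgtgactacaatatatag

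The windows of Fga and Fgb each hold the HNF1 core, the C/EBP and the STAT3 letters, and those of Fga and Hc hold the longer HNF1 site. The windows of Fgg, F5 and F10 hold none of the 4 motifs in these letters, though Fgg moved with the other chains. The HNF1 core occurred in 9 of 28 members with a window (32.1%) against 7.1% of 32841 promoter windows, and the longer site in 4 of 28 (14.3%) against 0.801%. For all 4 motifs a member counts once if any of its windows matches, whereas the background counts windows, so the units differ. The C/EBP letters occurred in 8 of 28 (28.6%) against 10.8%, and the STAT3 letters in 6 of 28 (21.4%) against 4.81%. A match describes these letters only and does not show binding.

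The anticoagulant genes Proc, Serpinc1 and Serpind1 had log2 fold changes of 2.45 to 2.50, and Pros1 had 0.82. Serpinc1, which encodes antithrombin, the main inhibitor of thrombin and factor Xa, was at 295.3, 614 and 202.3 CPM in TSDP 1, 2 and 5, and at 1.30, 168.3 and 33.7 CPM in Control 3, 4 and 5, a log2 fold change of 2.45 ± 1.40 (SE, adjusted p = 0.471 by edgeR). The groups did not overlap. Of its exons 34.4% are shared with the opposite-strand gene Zbtb37, which had 503 to 992 counts in a library. Proc, the protein C gene, and Serpind1, the heparin cofactor II gene, had log2 fold changes of 2.50 ± 1.30 and 2.49 ± 1.31 (edgeR adjusted p = 0.445 and 0.449). Pros1, the protein S gene, whose product is the cofactor of activated protein C, was at 78.5, 129.3 and 53.7 CPM in TSDP libraries and at 36.1, 75.5 and 36.9 CPM in Control libraries. Its groups overlapped, and the log2 fold change was 0.82 ± 0.42 (edgeR adjusted p = 0.441).

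The fibrinolysis genes overlapped between the groups. Plg, which encodes plasminogen, the precursor of plasmin, was at 536.5, 1032 and 364 CPM in TSDP 1, 2 and 5, and at 1.30, 367.7 and 49.8 CPM in Control 3, 4 and 5, a log2 fold change of 2.21 ± 1.54 (SE, adjusted p = 0.548 by edgeR). Serpinf2, the alpha-2-antiplasmin gene, had 1.85 ± 1.5 (edgeR adjusted p = 0.602). Vtn, which encodes vitronectin, an adhesion protein of plasma that also blocks the complement pore, was at 490.6, 1017 and 294.8 CPM in TSDP libraries and at 1.14, 404 and 57.8 CPM in Control libraries, a log2 fold change of 1.96 ± 1.57 (edgeR adjusted p = 0.598). For all 3 genes Control 4 exceeded TSDP 5.

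Control 3, the library with the least hepatocyte RNA, separated the members most clearly. In it 7 genes stood at 25.7% to 100.4% of their TSDP mean (C2, F5, F7, C4b, Pros1, Cfb and F10, in falling order), and their log2 fold changes ran between -0.16 and 1.33 with SE of 0.25 to 0.55. A further 7 genes (F11, Masp1, C8g, C6, C3, Klkb1 and Masp2) stood at 1.02% to 13.3%. The other 22 had SE of 1.30 to 1.62, and those 20 of them with more than 3 counts in Control 3 stood at 0.0937% to 0.583%. Among the 20 hepatocyte markers, 18 stood at 0.115% to 0.379%, Trf at 3.77% and Fah at 40.3%. The limits between these sets of genes were chosen after the values were seen, so the sets are a description. Macrophage markers in Control 3, at 0.173% of counts, were within the range of the TSDP libraries, and the part of macrophages or other cells in the C2, F5, F7 and F10 counts was not tested.

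**Figure D3:**
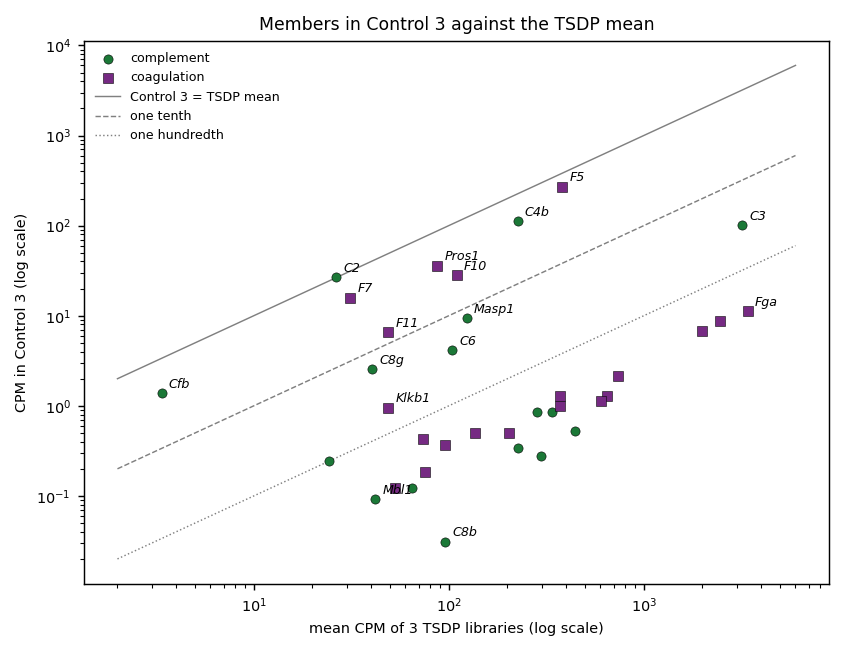
CPM of each member in Control 3 (vertical, log axis) against its mean CPM in the 3 TSDP libraries (horizontal, log axis), complement as circles and coagulation as squares, with lines for equal level and for levels 10 and 100 times lower. C2 lies on the line of equal level at 100.4% of the TSDP mean, and 22 of the 36 members lie below the lowest line.

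Counts per 1000 hepatocyte marker counts of the same library show the same separation. F2 was at 9.61, 10.3 and 10.3 in TSDP 1, 2 and 5, and at 5.96, 10.7 and 9.73 in Control 3, 4 and 5. Serpinc1 was at 9.38, 10.4 and 10.3 in TSDP libraries and at 7.82, 8.73 and 8.85 in Control libraries. Its range of 1.33-fold over all 6 was the smallest of the members on this scale, and that of F2 was 1.8-fold. In CPM, F2 and Serpinc1 varied 615.4-fold and 473.5-fold. By contrast F5 was at 10.4, 8.45 and 15.9 in TSDP libraries and at 1630, 15.6 and 45.9 in Control libraries, a range of 193-fold. C2, with 293-fold, C4b, with 140-fold, F7, with 122-fold, Cfb, with 108-fold, and Pros1, with 99.3-fold, were likewise highest in Control 3 on this scale. Without Control 3, 21 of 36 members stayed within 2-fold over the other 5 libraries. In Control 3, Fah gave 1567 and Trf 603 of the 5371 hepatocyte marker counts, so values on this scale there depend on these markers. With counts of Alb alone as denominator, F2 and Serpinc1 each ranged 1.27-fold over all 6 libraries, Cfi 1.22-fold and F5 280-fold.

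The fibrinogen genes, Kng1 and C3 were high relative to the hepatocyte markers in Control 4. Fga was at 85.6, 98.8 and 85.8 counts per 1000 hepatocyte marker counts in TSDP 1, 2 and 5, and at 67.8, 208 and 84.8 in Control 3, 4 and 5. Fgb was at 60.7, 71.8 and 63.9 in TSDP libraries and at 52.9, 150 and 66.0 in Control libraries. Kng1 was at 16.5, 22.6 and 18.6 in TSDP libraries and at 13, 43.7 and 22.0 in Control libraries. Control 4 therefore held more than the other 5 libraries of these 3 genes on this scale, whereas its Hc value (9.42) lay within the TSDP range of 8.73 to 9.47 and its F2 and Serpinc1 values close to theirs. C3 was at 75.3, 87.7 and 102 in TSDP libraries and at 611, 171 and 124 in Control libraries, lower in each TSDP library than in any Control library. The same held for C2, C4b, Cfb, F7, F10 and Pros1. By contrast C8a, C8b, C9 and Serpinc1 were higher in each TSDP library than in any Control library. The hepatocyte markers, by which this scale divides, took 1.94% to 5.59% of counts in TSDP and 0.0165% to 1.96% in Control libraries. A gene of similar CPM in both groups, such as C2, can therefore come out lower in TSDP on this scale. The share of all genes with either order on this scale was not computed. Hpx, a hepatocyte marker that is also an acute-phase gene, was at 1301, 2568 and 766 CPM in TSDP 1, 2 and 5, and at 4.94, 2125 and 185.8 CPM in Control 3, 4 and 5, with Control 4 again second to TSDP 2. Its log2 fold change of 1.0 was the smallest of the 20 hepatocyte markers, and its Control 4 value was 137.6% of its TSDP mean. Ambp, at 82.6%, also had Control 4 second to TSDP 2. The remaining markers stood in Control 4 at 14.8% (Tat) to 71.5% (Trf). The part of acute-phase regulation in the Control 4 values was not tested.

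**Figure D4:**
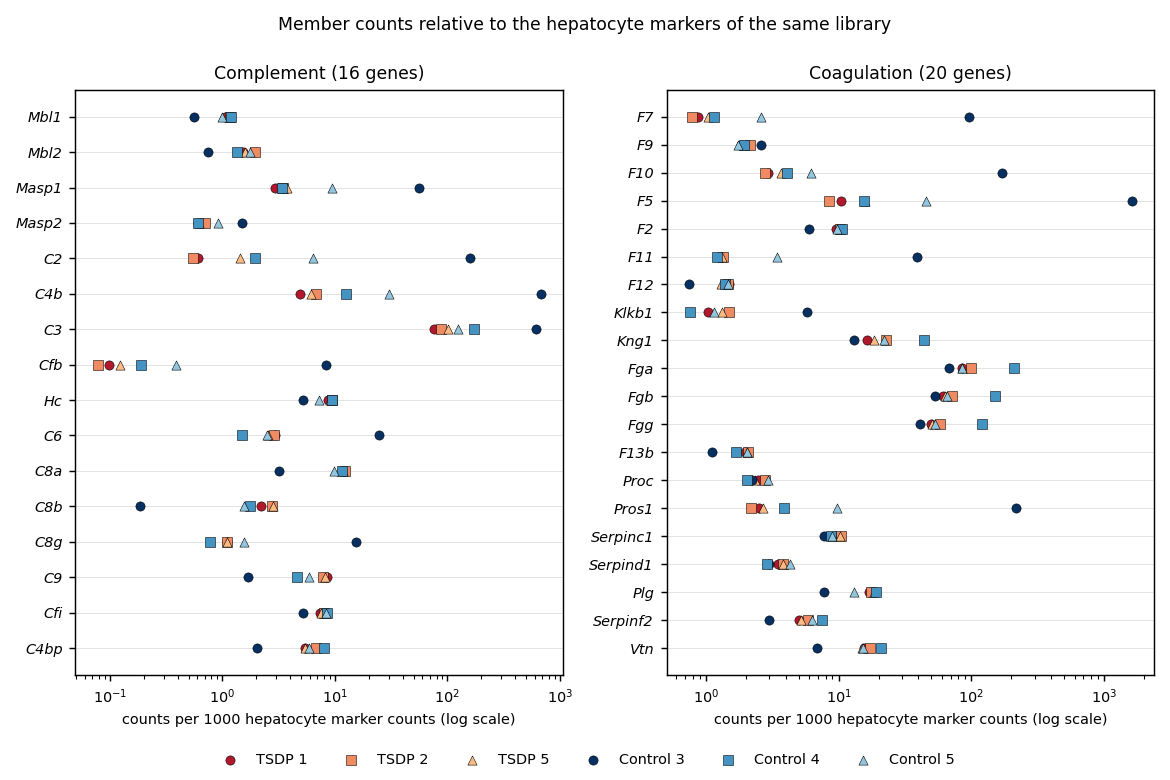
Counts of each member per 1000 hepatocyte marker counts of the same library, on a log axis, complement on the left and coagulation on the right, with 1 point per library. Control 3 lies far to the right for F5 (1630), C4b (678) and C2 (160), near the other libraries for F2 and Serpinc1, and Control 4 lies to the right of the others for Fga (208).

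Other genes of both pathways, from lists of 26 complement and 28 coagulation genes, were less uniform. Of 24 tested complement genes 0 passed, 20 were positive and 4 negative, with a median log2 fold change of 0.68. Of 27 tested coagulation genes 0 passed, 17 were positive and 10 negative, with a median of 0.12. At an unadjusted p under 0.05 there were 2 complement and 2 coagulation genes, all higher, which is 8.33% and 7.41% of these tested genes against 8.6% of all tested genes. The groups did not overlap for 2 complement and 4 coagulation genes, all higher in TSDP, which is 8.33% and 14.8% against 13% of all tested genes. The shares at that p and without overlap lie near the background. Of all tested genes 47.3% had a positive log2 fold change, with a median of -0.02, so the share of positive genes lies above the background in both lists, more so for complement. Some of these genes were near 0 in Control 3, as most members were. Among them Hrg, Serpina10 and Cpb2 stood there at 0.274%, 0.165% and 0.154% of their TSDP mean, and Colec10 had 2 counts. Most of the other listed genes were not near 0 in Control 3. Cfd and Fcnb in the complement list and Serpina5 in the coagulation list did not pass the filter on low counts.

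The complement genes with the smallest p in the positive direction were Cd59a, a membrane inhibitor of the pore, Vsig4, a complement receptor that is also among the Kupffer cell markers, and Fcna, a ficolin of macrophages. Their log2 fold changes were 1.14 ± 0.44, 1.42 ± 0.54 and 0.85 ± 0.36 (SE, adjusted p = 0.365, 0.365 and 0.38 by edgeR). In the negative direction they were Itgam, a chain of complement receptor 3, at -1.0 ± 0.57, C5ar1, the C5a receptor, at -0.50 ± 0.29, and Cd46, a membrane cofactor, at -0.54 ± 0.37 (edgeR adjusted p = 0.474, 0.483 and 0.533). Itgam was at 12.5, 32.8 and 20.1 CPM in TSDP 1, 2 and 5, and at 72.1, 42.1 and 16.8 CPM in Control 3, 4 and 5. The genes of C1q, the classical recognition protein made by macrophages, had log2 fold changes of 0.22 to 0.33, and C1qa was at 238.9, 292.3 and 228.6 CPM in TSDP libraries and at 187.0, 292.2 and 172.8 CPM in Control libraries.

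Among the other coagulation genes, F8, the factor VIII gene, which liver endothelium expresses, was at 13.1, 38.7 and 11.7 CPM in TSDP 1, 2 and 5, and at 1.64, 7.82 and 4.0 CPM in Control 3, 4 and 5. The groups did not overlap, with a log2 fold change of 2.24 ± 0.71 (SE, adjusted p = 0.334 by edgeR). Sinusoidal endothelial markers took 0.0301% to 0.0488% of counts in TSDP and 0.0198% to 0.0289% in Control libraries. Fcgr2b, with a log2 fold change of 0.15, gave 8162 of their 8970 counts in Control 3, where Stab2 had 24, Clec1b 18 and Clec4g 1. The median log2 fold change of these markers was 1.65, with 6 of 6 positive, and their part in the F8 values was not tested. Mcfd2, which helps to export factors V and VIII from the endoplasmic reticulum, and Vkorc1, which recycles vitamin K, had 0.42 ± 0.16 and 0.76 ± 0.35 (edgeR adjusted p = 0.370 and 0.401). In the negative direction, F13a1, the catalytic chain of factor XIII found in macrophages and megakaryocytes, was at 9.91, 56.9 and 46.9 CPM in TSDP libraries and at 302.1, 109.4 and 24.5 CPM in Control libraries (log2 fold change -1.94 ± 0.98, edgeR adjusted p = 0.437), F2rl3, a thrombin receptor, had -0.38 ± 0.36 (edgeR adjusted p = 0.648), and Anxa2, a cell-surface receptor for plasminogen and its activator, had -0.20 ± 0.21 (edgeR adjusted p = 0.689). F3, which encodes tissue factor, the trigger of coagulation, had 0.07 ± 0.44 (edgeR adjusted p = 0.951), at 5.12, 14.9 and 7.92 CPM in TSDP libraries and 5.75, 10.8 and 9.97 CPM in Control libraries. F3 and C1qa were named for their roles after their values were seen.

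**Figure D5:**
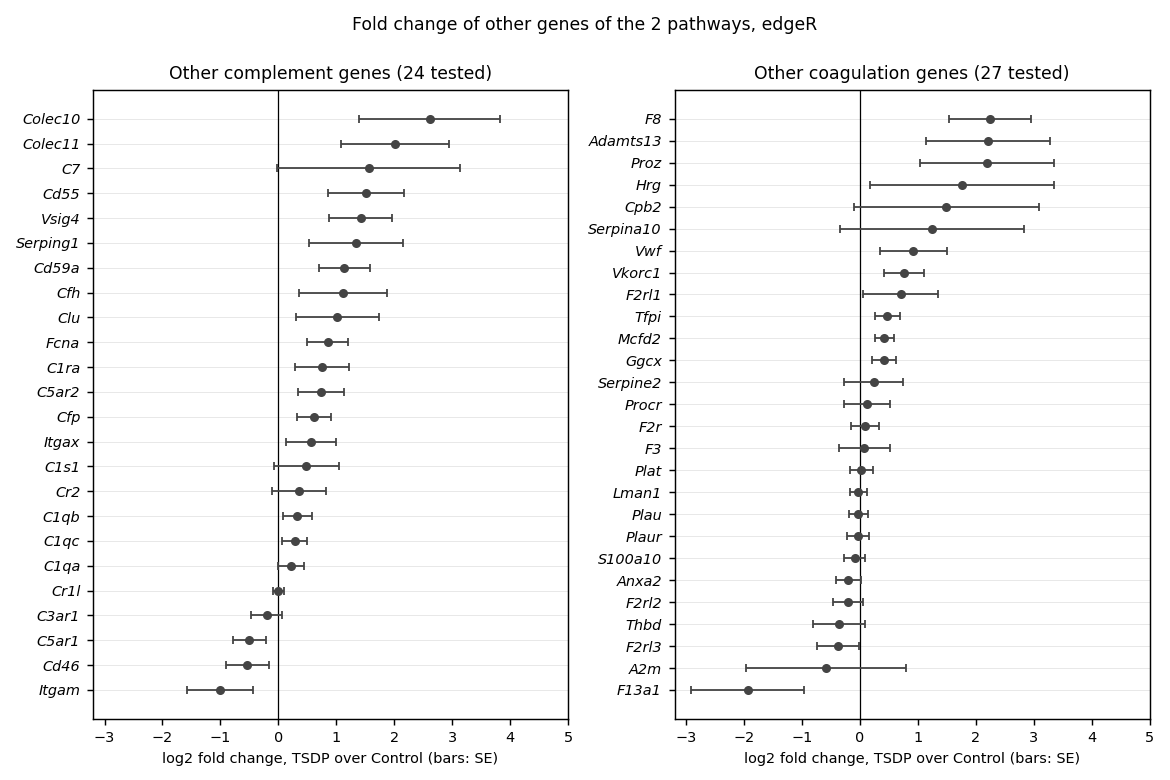
Log2 fold change, TSDP over Control, with SE as bars, for 24 other complement genes (left) and 27 other coagulation genes (right) that passed the filter on low counts, from edgeR. Coagulation genes centre near 0 and run between -1.94 for F13a1 and 2.24 for F8.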

How the data were processed

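RNA of 6 tumour samples was sequenced after RNeasy extraction and KAPA mRNA library preparation, per the labels' protocols. The submitters' processing notes name featureCounts 2.0.0, HISAT2 2.1.0 and Trimmomatic 0.38, besides CASAVA, FastQC and MultiQC. Genome build, annotation and strand setting were not given in the sources used here. All 55536 gene IDs of the table equal those of GENCODE M21 (GRCm38, primary assembly), which supplied positions, exonic lengths and overlaps. Whole read counts per gene, not normalized, fill the deposited count table. The deposited normalized table, a signal that per the file headers carries gene symbols, equals the counts over 1 constant for each library (relative departure at most 1e-14) and supplied only symbols.

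Groups came from the sample titles, and nothing says how the samples of a group were kept apart, so each p-value reflects only how far these samples spread, which may be technical. Counts were tested with edgeR 4.0.16 in R 4.3.3 (TMM, filterByExpr with minimum count 10, legacy quasi-likelihood, Benjamini-Hochberg over 17423 genes at 0.05). The biological coefficient of variation was 34.9%. The SE of a log2 fold change is its size over the square root of the F statistic. CPM uses TMM-scaled library sizes. DESeq2 1.42.0 and limma 3.58.1 (voom), other scalings and filters, bias-adjusted quasi-likelihood, a hepatocyte covariate and leaving out each library were alternatives. The hepatocyte score is the mean log2 of CPM plus 0.5.

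The members and lists were chosen with earlier results of these data known. All members are accounted for. The genes given with values in each library are 16 chosen for their roles, the member of smallest p and the member of smallest change in each class, the 3 in each class that varied most per hepatocyte marker count, and the 3 of smallest p in each direction of the other lists. Kng1 and Hpx, like F3 and C1qa, are given outside these rules. One gene of the other coagulation list is not reported here and is left out of the counts over that list. Motifs and promoters were chosen after the data were seen.

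On a simulated table of 17423 genes for this comparison, edgeR recovered 8.96% of genes changed 2-fold, 76.1% of those changed 4-fold and 89.4% of those changed 8-fold. Genes were drawn independently, and changes were planted only in genes with higher counts. The library order shared by the members was not simulated, so these rates may not hold for the members.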

Additional observations from a re-analysis of the deposited data

How the results depend on the processing

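No member passed under any other scaling, filter or quasi-likelihood, with limma-voom, with the covariate or without any of the libraries. DESeq2 called 547 genes higher and 73 lower over the whole table, among them 2 complement members (C6 and C8g), 1 coagulation member (F11) and 1 other coagulation gene (F8). Without the filter on low counts 1 gene of the table, Etnppl, was called. With the hepatocyte covariate the complement and coagulation medians were -0.36 and -0.37, and these members turned negative, in log2 fold change: C3 -0.72, C4b -0.28, Hc -0.60, C8a -0.78, C8b -0.25, C9 -0.067, Cfb -0.15, Cfi -0.81, C4bp -1.30, Masp2 -0.29, Mbl1 -0.69, Mbl2 -0.48, F2 -0.72, F9 -0.33, F12 -0.67, F13b -0.39, Proc -0.35, Plg -0.68, Kng1 -1.79, Serpinc1 -0.30, Serpind1 -0.30, Serpinf2 -1.22, Fga -1.66, Fgb -1.65, Fgg -1.67 and Vtn -1.13. None of them had passed, and the cause was not tested. Leaving out 1 library at a time, the complement median ran between 1.61 (without TSDP 2) and 4.03 (without Control 4). The coagulation median ran between 1.27 (without TSDP 2) and 4.19 (without Control 4), and the members without overlap between 17 and 35. With all 6 libraries, the members without overlap were 16 with RLE scaling, and 12 with library totals only or with upper quartile scaling. C2 ran between -0.34 and 0.054, positive without TSDP 1 (0.032) or Control 4, and C4b between -0.20 (without TSDP 2) and 0.99. limma-voom gave medians of 3.56 and 3.68. No paired analysis was possible because the groups share only replicate number 5. For the 22 members lowest in Control 3 the SE of 1.30 to 1.62 on the log2 scale limits what 3 libraries a group can show.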
